A study of Mus musculus with 2 samples.

Results

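Endothelial cells, which line blood vessels, were examined in small subcutaneous B16F10 tumours. B16F10 is a mouse melanoma cell line. They were selected from 2 single-cell RNA sequencing libraries, each made from 2 pooled tumours. The hosts were Atf4 WT/WT in one (WT) and Atf4 Δ/Δ in the other (KO). Cells were kept if they showed 200 to 5000 genes and no more than 7.5% mitochondrial UMIs (unique molecular identifiers, 1 for each captured transcript). A kept cell was taken as endothelial if the melanoma genes Pmel, Dct, Mlana and Tyrp1 made up less than 0.5% of its UMIs, if at least 3 of the 9 markers Pecam1, Cdh5, Kdr, Flt1, Tie1, Tek, Egfl7, Cldn5 and Emcn had a UMI, and if no more than 2 of the 6 fibroblast and mural genes Dcn, Lum, Pdgfra, Dpt, Rgs5 and Notch3 did. This gave 104 of 7418 kept cells, 78 of 3861 in WT and 26 of 3557 in KO.

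Per the labels the mice were 11 weeks old, of host genotype Atf4wt/wt or Atf4D/D, with male and female animals pooled. By the study's methods both groups carried Rosa26::CreERT2 and received tamoxifen, and the deletion came from floxed Atf4 alleles removed in all host tissues. The injected melanoma cells keep their own Atf4 in both libraries. The Y-linked genes had no UMI in any kept WT cell, although the label gives pooled sexes, while 8 of the 26 KO endothelial cells had a Y-linked UMI. Host genotype and the sex of the sampled cells therefore cannot be told apart. Values are also given over cells that had Xist UMIs and lacked Y-linked ones (Xist-only cells, 61 WT and 9 KO). They are given for each summed list reported below with a ratio whose value there left its counting interval. They are also given for the genes furthest apart between the libraries. Each genotype had 1 library, so no test between genotypes was possible. Intervals are at 95% and cover counting error only. The libraries shared 10 barcodes among all those deposited.

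The endothelium of a tumour grows by sprouting. A leading tip cell, guided by VEGF through the receptor Kdr and held in check by Dll4 and Notch, extends from an existing vessel and is followed by dividing cells, after which the new tube is wrapped by pericytes and a basement membrane. Capillary cells exchange gas, water and fatty acids with the tissue, and venous cells carry the adhesion molecules on which leukocytes settle. ATF4 is a transcription factor of the integrated stress response that switches on genes for amino acid uptake and synthesis.

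The endothelial cells held 375485 UMIs in WT and 117444 in KO. Median depth was 3020 UMIs in WT (851 to 19309) and 3818.5 in KO (642 to 10555), against 3965 and 6322 in the other kept cells. Cells with 7 of the markers were the most frequent, 23 in WT and 9 in KO. Just inside the limit, 8 WT cells (median 1397.5 UMIs) and 1 KO cell (642 UMIs) had exactly 3 markers. Just outside it, 7 WT cells (median 1363 UMIs) and 10 KO cells (5126.5) had 2. The limit on fibroblast and mural genes alone removed 4 WT cells and 1 KO cell, and the melanoma limit alone removed 1 KO cell.

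RNA of other cell types was present in some of these cells and differed between the libraries. At least 3 of 10 macrophage genes had a UMI in 6 WT cells and 1 KO cell, and at least 2 of 7 mural genes (Rgs5, Notch3, Acta2, Tagln, Myh11, Pdgfrb and Cspg4) in 9 WT cells and 8 KO cells. The summed macrophage genes were at 1268 CPM (UMIs scaled to an equal total in each library) in WT and 162 CPM in KO, a log2 KO/WT ratio of -2.97 (-3.71 to -2.31), and all 7 members with at least 20 UMIs were more than 2-fold lower in KO, as were 7.8% of all 3694 genes with at least 20 UMIs. The summed mural genes were at 431 CPM in WT against 1584 in KO, a log2 ratio of 1.88 (1.56 to 2.19) that was 0.86 (0.48 to 1.24) without the cells carrying macrophage RNA. In Xist-only cells the ratio was -5.34 (-10.65 to -2.86) for the macrophage genes and 1.37 (0.80 to 1.91) for the mural genes. A list of 8 fibroblast and mural genes, Col1a1, Col1a2 and Col3a1 among them, had 744 UMIs in WT and 212 in KO. Its log2 ratio was -0.13 (-0.36 to 0.09), -0.70 without cells carrying macrophage RNA and -1.38 in Xist-only cells. Without the cells carrying mural RNA this list held 265 and 3 UMIs, a ratio of -4.45 (-6.74 to -2.89). Fibroblast RNA thus stayed in that setting, almost only in WT. The T and NK cell genes Cd3e, Cd3d, Trac and Nkg7 had 0 UMIs in both libraries. The summed lists below are therefore also given without the cells that carry mural or macrophage RNA where that value left the counting interval, single genes are given so where stated, and the part of this RNA in the results was not tested.

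The endothelial label was checked first. The markers that chose the cells were strong in both libraries and near absent elsewhere, as the rule fixes. Cdh5, the adhesion molecule of endothelial junctions, was at 985 CPM in WT against 1192 in KO. In the other kept cells it was at 3.06 and 0.675 CPM. Pecam1 (CD31) was at 807 and 732 CPM, and the junction protein gene Cldn5 at 338 and 409 CPM. Of 18 endothelial genes that the rule did not use, 17 had at least 20 UMIs and 13 had at least 50. All 13 were at least 2-fold above the other kept cells in both libraries, a property of 25.4% of the 1556 genes with at least 50 UMIs. Esam, a junction protein, was at 551 CPM in WT against 571 in KO, and at 1.93 and 0.516 CPM in the other cells. Plvap, which forms the diaphragms of fenestrated vessels, was at 674 and 800 CPM. Genes of these cells vary together with the markers, so this is a description and no test.

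**Figure D1:**
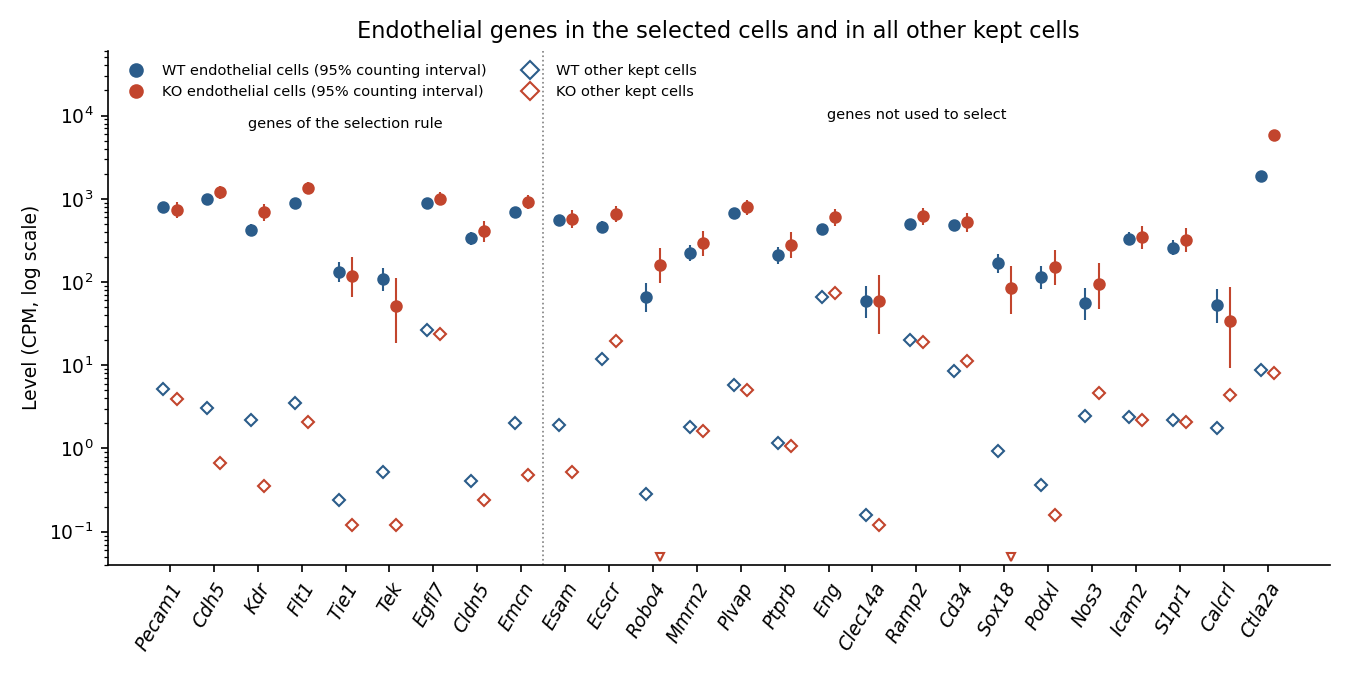
Level of each endothelial gene in CPM on a log axis, with filled circles and 95% counting intervals for the endothelial cells and open diamonds for all other kept cells of the same library; an open triangle at the bottom marks a value below 0.05 CPM. Every gene shown is higher in the endothelial cells of both libraries, and Ctla2a is the only one whose KO level is more than 3 times its WT level.

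The genes most confined to the endothelial cells were those with the largest fold over the other kept cells in the library where it was smaller. They included Sox17, a transcription factor of arterial endothelium (128 CPM in WT and 119 in KO, with 3 and 4 UMIs in all other cells), the fatty acid-related genes Gpihbp1 and Rbp7, the gap junction gene Gja4, the Notch ligand Dll4, the tip gene Esm1 and the apelin receptor Aplnr. Gpihbp1, which carries lipoprotein lipase to the capillary lumen, was at 1342 CPM in WT against 2265 in KO. Rbp7, a retinol-binding protein, was at 783 and 1473 CPM. Palmd, Btnl9, Tmem252, Grrp1, Plxna2, Rasip1, Cyyr1 and Podxl completed the 15 genes.

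ETS transcription factors bind a short GGAA-centred core and are known for driving endothelial genes, so the 250 bases before the start of these genes were searched for AGGAAG or CGGAAG on either strand. Of 27025 promoters in the RefSeq table on build GRCm38.p6, 39.0% held the core. It was found in 4 of the 7 matched rule markers, 4 of 7 other endothelial genes, 4 of 9 tip genes, 5 of 8 capillary genes and 5 of 9 venous genes. The promoter of Tie1, an endothelial receptor tyrosine kinase, is shown because it held the core 2 times, once on each strand, at chr4:118489850-118490099 on the minus strand. Capitals mark the core.
Tie1: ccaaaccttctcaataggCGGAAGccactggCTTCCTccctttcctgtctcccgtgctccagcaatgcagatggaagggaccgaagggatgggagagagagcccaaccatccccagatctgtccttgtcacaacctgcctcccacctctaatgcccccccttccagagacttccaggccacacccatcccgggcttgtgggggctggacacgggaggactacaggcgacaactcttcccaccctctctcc
A match is a string of letters and no evidence of binding.

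Endothelial cells made up a smaller share of the KO library. They were 2.02% (1.60 to 2.51, Clopper-Pearson) of kept cells in WT and 0.731% (0.478 to 1.07) in KO, a log2 KO/WT ratio of -1.47 (-2.17 to -0.81). Among kept cells under the melanoma limit they were 3.82% of 2043 in WT and 1.48% of 1755 in KO, a log2 ratio of -1.37 (-2.07 to -0.71). Across the alternatives the log2 ratio lay between -1.82 and -1.37. Fewer endothelial cells in the tumour and fewer released by dissociation cannot be told apart here.

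The targeted gene was then read in the endothelial cells. Atf4 (ENSMUSG00000042406, chromosome 15, 80255184 to 80257541, plus strand, GRCm38, protein coding) had 79 UMIs in 40 of 78 WT cells and 1 UMI in 1 of 26 KO cells. Its level was 210 CPM (167 to 262) in WT and 8.51 CPM (0.216 to 47.4) in KO, a log2 ratio of -4.63 (-9.95 to -2.11). In the other kept cells, which include the melanoma cells, it was at 223 and 190 CPM. The single KO UMI lay in a cell with mural RNA. Without such cells KO had 0 UMIs, and with 3 UMIs put in for that 0 the log2 ratio was -2.10, with an upper limit of -1.75. In Xist-only cells it was 74 UMIs against 0, and the ratio found in the same way was -1.10, with an upper limit of -0.76.

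Tip genes were present in both libraries. A cell was called tip-marked if at least 2 of 12 tip genes had a UMI after each cell was thinned to 1000 UMIs, which left out 2 WT and 3 KO cells. In WT 43 of 76 cells were tip-marked (56.6%, 44.7 to 67.9) and in KO 11 of 23 (47.8%, 26.8 to 69.4), a log2 ratio of shares of -0.24 (-1.35 to 0.74). Without thinning 79.5% of WT cells carried 2 tip genes. In the other kept cells the shares at 1000 UMIs were 0.619% and 0.910%, far below those of the endothelial cells. The interval of the ratio included both a lower and a higher share in KO, and over the alternatives the ratio ran from -0.52 to 0.52.

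Among the tip genes, Angpt2 stood apart. Angpt2, a secreted antagonist of the Tie2 receptor that loosens pericyte contact (ENSMUSG00000031465, chromosome 8, 18690263 to 18741562, minus strand), had 36 UMIs in 18 of 78 WT cells and 47 UMIs in 14 of 26 KO cells. That is 95.9 CPM (67.2 to 133) against 400 CPM (294 to 532), a log2 ratio of 2.06 (1.40 to 2.73). It was 1.53 (0.47 to 2.55) without cells carrying mural RNA, 1.85 without cells carrying macrophage RNA and 1.53 in Xist-only cells. No other tip gene with at least 50 UMIs was 2-fold apart, against 3.21% of all 1556 genes 2-fold higher in KO and 3.34% 2-fold lower. Apln, the ligand of the apelin receptor, was at 229 CPM in WT against 417 in KO, but 40.8% of its KO UMIs lay in 1 cell and its log2 ratio went from 0.87 to -0.36 without cells carrying mural RNA. Esm1 was at 178 and 281 CPM, which gave a log2 ratio of 0.66 (0.01 to 1.28) that was 0.57 without those cells. Dll4, which represses the tip state in neighbouring cells, was at 189 CPM in WT against 119 in KO, with an interval from -1.61 to 0.17. Pdgfb, which recruits pericytes, was at 186 and 136 CPM, and Kcne3 at 216 and 213 CPM. Trp53i11 was at 306 and 247 CPM and Mcam at 397 and 358 CPM. The intervals of these 4 genes included 0.

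Summed over the 12 tip genes, the level was 2237 CPM in WT against 2691 in KO, a log2 ratio of 0.27 (0.08 to 0.46), and 6 genes were higher and 6 lower. The median log2 ratio over the genes was 0.12, against 0.01 over all 1556 genes. The direction of the sum was not stable. It was -0.10 (-0.38 to 0.17) without cells carrying mural RNA and -0.31 (-0.74 to 0.09) in Xist-only cells.

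Capillary genes filled nearly every cell. At 1000 UMIs 68 of 76 WT cells and 22 of 23 KO cells had at least 2 of 12 capillary genes, against 3.59% and 1.76% of other kept cells. Fabp4, a fatty acid carrier of capillary endothelium, had 5120 UMIs in 77 of 78 WT cells and 1749 UMIs in all 26 KO cells, or 13636 and 14892 CPM. Its log2 ratio of 0.13 (0.05 to 0.21) turned to -0.04 when the cell with the most Fabp4 was left out of each library. Fabp4 alone held 5120 of the 6467 WT UMIs and 1749 of the 2325 KO UMIs of the 12 capillary genes. The fatty acid transporter Cd36 was at 565 and 690 CPM, the water channel Aqp1 at 567 and 571 CPM and Rgcc at 538 and 579 CPM, all with intervals that included 0.

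Besides Fabp4, the intervals of Gpihbp1 and Cd300lg lay above 0. Gpihbp1 (chromosome 15, 75596628 to 75599481) had 504 UMIs in 64 WT cells and 266 in 21 KO cells, a log2 ratio of 0.75 (0.54 to 0.97) that was 0.69 without cells carrying mural RNA, 0.64 without cells carrying macrophage RNA and 0.44 in Xist-only cells. Cd300lg, a glycoprotein of capillary endothelium that binds lymphocytes, was at 250 CPM in WT against 511 in KO, a log2 ratio of 1.03 (0.54 to 1.51), with 0.91, 0.92 and 1.15 in the same order. It was the only one of the 7 capillary genes with at least 50 UMIs to be 2-fold higher. Btnl9 was at 147 and 76.6 CPM, but its interval ran from -2.14 to 0.09. The summed list, most of whose UMIs were those of Fabp4, had a log2 ratio of 0.20 (0.13 to 0.27) and a median over genes of 0.12. The sum was 0.38 without cells carrying mural RNA, 0.13 without cells carrying macrophage RNA and 0.28 in Xist-only cells.

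Venous genes were sparser. At least 2 of 12 had a UMI in 16 of 76 WT cells (21.1%, 12.5 to 31.9) and 11 of 23 KO cells (47.8%, 26.8 to 69.4), a log2 ratio of 1.18 whose interval, -0.07 to 2.38, included 0. The share was 1.27% and 1.22% in other kept cells. The vein-enriched gene Tmem252 had 107 UMIs in 47 WT cells and 74 in 20 KO cells, 285 against 630 CPM. Its log2 ratio of 1.14 (0.70 to 1.59) was 1.36 without cells carrying mural RNA and 2.11 in Xist-only cells. Icam1, a leukocyte adhesion molecule, was at 154 and 255 CPM, which gave a log2 ratio of 0.73 (0.04 to 1.39), and 1.45 without cells carrying mural RNA. Lrg1, a secreted glycoprotein of inflamed vessels, was at 208 and 230 CPM and did not differ beyond counting error. The other adhesion genes were too low to compare. Vcam1 had 13 WT UMIs and no KO UMI and Sele 9 and 0, where the counting interval of 0 UMIs in KO reaches up to 31.4 CPM. Selp had 17 and 5 UMIs, and Ackr1, a marker of postcapillary venules, 5 and 1. Over the 12 genes the sum was 935 CPM in WT against 1371 in KO, a log2 ratio of 0.55 (0.27 to 0.83), and it was 1.29 (0.87 to 1.69) in Xist-only cells. Tmem252 alone held 107 of the 351 WT UMIs and 74 of the 161 KO UMIs of the list. Of the 6 genes with at least 20 UMIs, 4 were above 0 and 2 below. Their median was 0.37, and 0.18 without cells carrying mural RNA, against 0.01 over all 1556 genes. Tmem252 was the only one of them to be 2-fold higher.

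**Figure D2:**
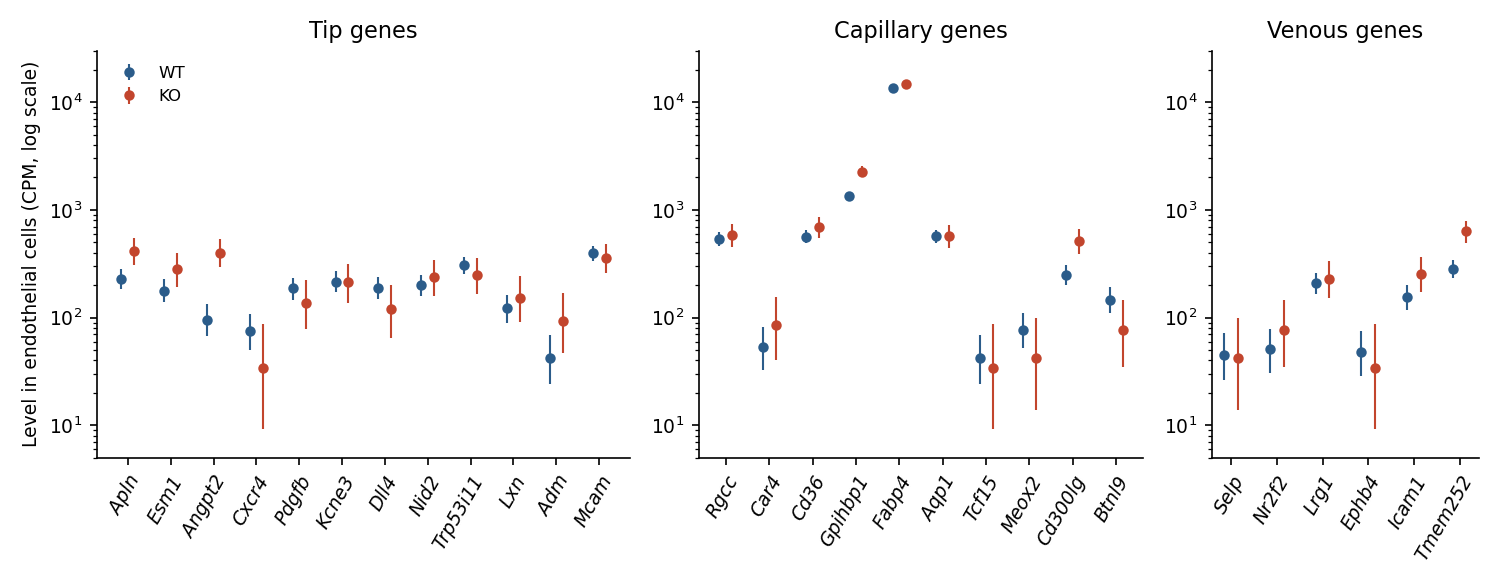
Level of each tip, capillary and venous gene with at least 20 UMIs in the endothelial cells of each library, in CPM on a log axis, with 95% counting intervals. Angpt2, Apln, Cd300lg, Fabp4, Gpihbp1 and Tmem252 have intervals that do not overlap between WT and KO, while most other genes overlap. The ratio of Apln changed sign without cells carrying mural RNA, and that of Fabp4 without its top cell in each library.

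The 3 programmes were mixed within cells. In WT 36 of 76 cells were tip-marked and capillary-marked without venous marks, 17 were capillary-marked only, 11 were capillary- and venous-marked and 4 carried all 3. In KO the same classes held 7, 5, 6 and 4 of 23 cells. The numbers of tip and venous genes per cell at 1000 UMIs had a Spearman correlation of -0.27 over 76 WT cells and -0.30 over 23 KO cells, and that of tip and capillary genes was -0.02 in WT and below 0.01 in KO. These cells share a library and an equal depth, and the correlations are descriptions without a test.

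**Figure D3:**
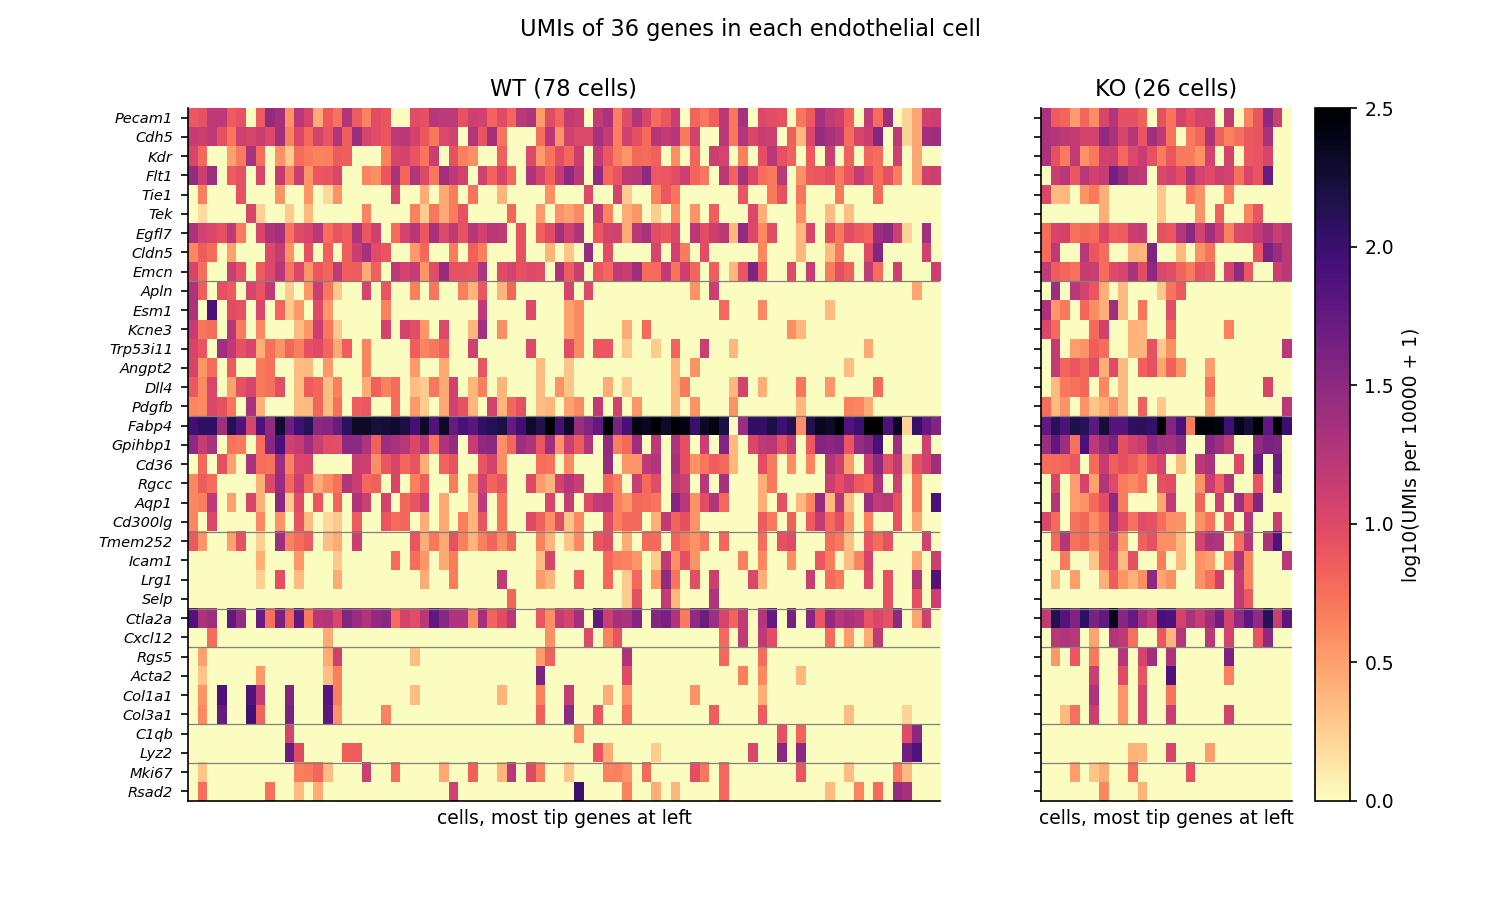
UMIs per 10000 of selected genes, as log10(value + 1), in each of the 78 WT and 26 KO endothelial cells, ordered by the number of tip genes at 1000 UMIs with the shallowest cells at the right. Grey lines separate, from the top, the rule markers, tip, capillary and venous genes, Ctla2a and Cxcl12, mural and fibroblast genes, macrophage genes, and Mki67 with Rsad2. Fabp4 is seen in nearly every cell, tip genes thin out from left to right, and the collagen and macrophage genes are concentrated in a few cells.

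Genes that accompanied the tip genes were read by comparing tip-marked with other cells inside WT, and the same genes were then read in KO, which did not choose them. Of the 20 genes with the largest WT fold, tip genes left out, 18 were higher in KO tip-marked cells, against 51.9% of 1127 genes, and 9 were at least 2-fold higher. Their median log2 difference in KO was 0.94, against 0.02 for all those genes. The KO tip-marked cells had a median of 6464 UMIs against 2905.5 in the other KO cells, while in WT the medians were 3222 and 2995. In KO 5 of the 11 tip-marked cells carried mural RNA. Without such cells 8 of the 20 genes had too few KO UMIs to compare, and 10 of the other 12 were higher in tip-marked cells, against 49.3% of 1096 genes. Igfbp3, an insulin-like growth factor binding protein, had 742 UMIs in 31 of 43 tip-marked WT cells and 104 UMIs in 13 of the other 33 cells, a log2 difference of 2.25. In KO it had 194 and 34 UMIs, a log2 difference of 2.06. The serine protease gene Prss23 had log2 differences of 1.71 in WT and 2.26 in KO, Mest 1.71 and 1.25, and the membrane protease gene Mmp14 1.71 and 1.42. Fscn1, an actin bundler of filopodia, had 1.54 and 0.55.

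Fibrillar collagen genes also led the WT list but came from few cells. Col1a1 had 212 UMIs in 11 tip-marked WT cells, 51.9% of them in 1 cell, and 6 UMIs in 4 of the other cells. Col1a2 and Col3a1 had 42.5% and 47.0% of their tip-marked UMIs in 1 cell. Removing cells with mural RNA left the log2 difference of Col1a1 at 4.40 in WT, from 4.56. In KO its 27 UMIs in tip-marked cells and 3 in the others, a log2 difference of 2.72, all lay in cells with mural RNA. Without those cells Col1a2 and Col3a1 had 2 UMIs and 1 UMI in KO tip-marked cells and 0 in the others. In WT 6 tip-marked cells and 3 others had at least 2 mural genes, and in KO 5 and 3. No setting left out cells by their collagen RNA, so its part in the differences of Igfbp3, Prss23, Mest and Mmp14 was not tested. Aplnr went the opposite way in the libraries, with a log2 difference of -1.45 in WT and 1.87 in KO tip-marked cells.

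The comparison of the libraries over all genes asked which endothelial genes stood furthest apart. Of 1556 genes, 52 (3.34%) were at least 2-fold lower in KO and 50 (3.21%) at least 2-fold higher, and the intervals of 46 and 50 of these did not include 0. Leaving out for each gene its top cell in each library, 50 of the 52 and 37 of the 50 stayed 2-fold apart. The 10 genes furthest apart in each direction are described next.

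Cxcl12 led the genes higher in KO. Cxcl12, the chemokine that binds Cxcr4 (ENSMUSG00000061353, chromosome 6, 117168535 to 117181367, plus strand), had 37 UMIs in 14 of 78 WT cells and 92 UMIs in 14 of 26 KO cells, with at most 9 and 14 UMIs in a single cell. Its level was 98.5 CPM (69.4 to 136) in WT and 783 CPM (631 to 961) in KO, a log2 ratio of 2.99 (2.43 to 3.58). It was 3.52 without cells carrying mural RNA, 2.90 without cells carrying macrophage RNA and 3.70 in Xist-only cells. In the other kept cells it was at 11.2 and 18.4 CPM. Its receptor gene Cxcr4 had 28 UMIs in 14 WT endothelial cells and 4 UMIs in 3 KO cells, a log2 ratio of -1.13 whose interval of -3.10 to 0.38 included 0.

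Ctla2a, from the list of other endothelial genes, was also higher in KO. This gene of a cysteine protease inhibitor (ENSMUSG00000044258, chromosome 13, 60934155 to 60936625, minus strand) had 714 UMIs in 67 of 78 WT cells and 677 UMIs in all 26 KO cells. That is 1902 CPM (1765 to 2046) against 5764 CPM (5338 to 6216), a log2 ratio of 1.60 (1.45 to 1.75). It was 1.67 without cells carrying mural RNA, 1.42 without cells carrying macrophage RNA and 1.71 in Xist-only cells. In the other kept cells it was at 8.77 and 8.15 CPM. Ctla2b is a near-identical neighbour, and the division of reads between the copies depends on the counting and is uncertain.

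Thbs1, a secreted inhibitor of angiogenesis, was at 93.2 CPM in WT (19 cells) and 468 CPM in KO (13 cells), a log2 ratio of 2.33 (1.69 to 2.98), and 1.40 without cells carrying mural RNA. Phlda3, a p53 target that restrains Akt, was at 66.6 and 230 CPM, which gave a log2 ratio of 1.79 (0.95 to 2.63) that was 1.67 without those cells. Prss23 was at 141 and 451 CPM, with 1.68 (1.10 to 2.25) and 1.47. In Xist-only cells the ratios of Thbs1, Phlda3 and Prss23 were 1.89, 2.46 and 2.34. Other genes of this group were bound to the cells with mural RNA. Rgs5 and Acta2 are themselves on the mural list, with log2 ratios of 1.78 and 2.10 that were 1.85 and 0.50 in Xist-only cells. Arhgdib had a log2 ratio of 2.54 that was 0.25 without those cells, and the myosin kinase gene Mylk went from 1.89 to -0.79. Cebpb went from 1.68 to 0.73. In Xist-only cells, with 8, 12 and 5 KO UMIs, Arhgdib stood at 2.14, Mylk at 2.72 and Cebpb at 1.15, the last with an interval of -0.59 to 2.55.

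Of the genes lower in KO, several were macrophage genes. Lyz2 had 202 UMIs in 12 WT cells and 10 in 4 KO cells, a log2 ratio of -2.66 (-3.74 to -1.75) that was -0.40 without cells carrying macrophage RNA. Fcer1g went from -4.37 to -0.99 and Apoe from -2.10 to -0.94. Cxcl10, an interferon-induced chemokine, had 78 WT UMIs and 0 KO UMIs. With 3 UMIs put in for the 0 the log2 ratio was -3.02, with an upper limit of -2.69. Of the WT UMIs 56.4% lay in 1 cell. The ratio was -1.46 without cells carrying macrophage RNA, with an upper limit of -1.05. In Xist-only cells Lyz2, Fcer1g and Cxcl10 had 0 KO UMIs. With 3 UMIs put in, their ratios were -2.53, -0.89 and -1.17, with upper limits of -2.22, -0.55 and -0.84. Apoe stood at -1.66 (-3.56 to -0.28) there.

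Other genes lower in KO stayed lower without the cells carrying macrophage RNA. The heat shock gene Hspa1a had 135 UMIs in 29 WT cells and 7 UMIs in 7 KO cells, 360 against 59.6 CPM. Its log2 ratio of -2.59 (-3.93 to -1.51) was -2.62 without cells carrying macrophage RNA and -1.99 without those carrying mural RNA. In the other kept cells it was lower in KO as well, with a log2 ratio of -0.85. Its near-identical copy Hspa1b shares reads with it, which makes the level uncertain. Rsad2, an antiviral interferon-stimulated gene, had 94 UMIs in 15 WT cells, 33.0% of them in 1 cell, and 3 UMIs in 2 KO cells. A different cell held 66.7% of the 45 UMIs in tip-marked WT cells. Leaving out cells carrying macrophage RNA kept that cell and left 63 WT UMIs, so the ratio there rests in part on it. The log2 ratio of Rsad2 was -3.29 (-5.60 to -1.70), and -2.79 without cells carrying macrophage RNA. Isg15 was at 133 and 25.5 CPM, with -2.38 (-4.71 to -0.75) and -1.86. Tspan13 was at 138 and 34.1 CPM and the respiratory complex I gene Ndufa3 at 133 and 34.1 CPM, with log2 ratios of -2.02 and -1.97. In Xist-only cells KO held at most 4 UMIs of each of these 5 genes. Hspa1a stood there at -1.48 (-3.38 to -0.09) and Rsad2, with 3 UMIs put in for 0 KO UMIs, at -1.38 with an upper limit of -1.05. The intervals of Isg15 (-0.83, -3.92 to 1.11), Ndufa3 (-0.90, -3.99 to 1.04) and Tspan13 (-1.96, -7.30 to 0.59) included 0.

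**Figure D4:**
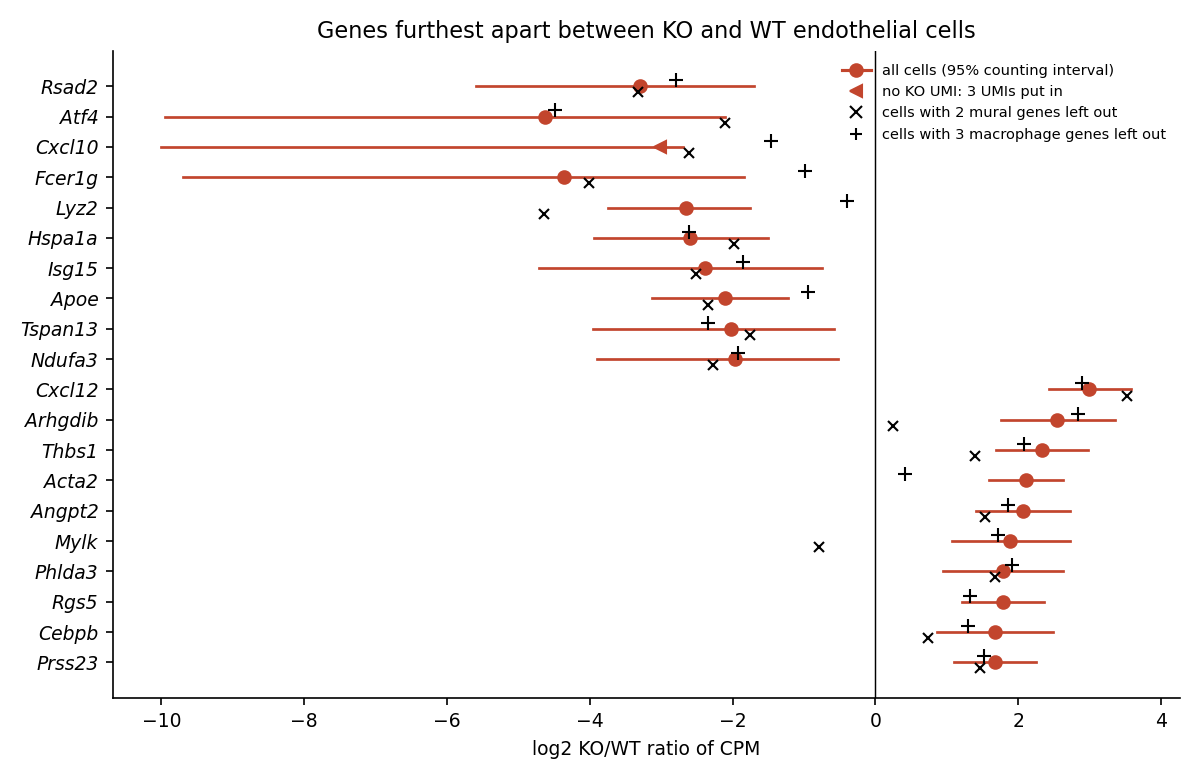
The 10 genes furthest apart in each direction between KO and WT endothelial cells, as log2 KO/WT ratios of CPM with 95% counting intervals; the interval of Cxcl10, whose KO count is 0, has no lower limit and is drawn to the left edge. Crosses give the ratio without cells carrying 2 mural genes and plus signs that without cells carrying 3 macrophage genes. Cxcl12 stays between 2.90 and 3.52 in all 3 settings, while Lyz2 moves close to 0 without the macrophage cells.

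Signalling genes that govern sprouting were next compared as a list of 22 VEGF, Tie, Notch and BMP genes. Of 19 with at least 20 UMIs, 14 had a log2 ratio above 0 and 5 below, with a median of 0.50 against 0.01 over all genes. The count and median include 4 markers of the selection rule, whose UMIs chose the cells, and were not computed without them. The VEGF receptor genes Kdr and Flt1, both markers of the selection rule, were higher in KO. Kdr was at 426 CPM in WT against 690 in KO, a log2 ratio of 0.69 (0.29 to 1.09), and Flt1, the decoy receptor, at 895 and 1354 CPM, 0.60 (0.32 to 0.87). The third receptor gene, Flt4, had 25 UMIs in WT and 7 in KO, a log2 ratio of -0.16 whose interval of -1.61 to 1.09 included 0. Eng, a co-receptor of BMP9, was at 429 and 604 CPM, which gave a log2 ratio of 0.50 (0.07 to 0.91). Tek, the Tie2 receptor of Angpt2, had 41 UMIs in 30 WT cells and 6 in 6 KO cells, a log2 ratio of -1.10 with an interval of -2.62 to 0.15. The Notch target Hes1 was at 234 and 136 CPM. Notch1, Notch4, Id1, Id3, Nrp1 and Bmpr2 had intervals that included 0. The summed list had a log2 ratio of 0.40 (0.27 to 0.54), and it was 0.63 (0.40 to 0.85) in Xist-only cells. Without its 4 rule markers, Kdr, Flt1, Tie1 and Tek, the sum was 0.34 (0.16 to 0.51), and 0.49 (0.18 to 0.79) in Xist-only cells.

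Basement membrane genes, which build the sheet under the endothelium, were higher in KO in sum, but this depended on the cells with mural RNA. The sum of 14 genes was 12493 CPM in WT against 16510 in KO, a log2 ratio of 0.40 (0.32 to 0.48), and 11 of 12 genes with at least 20 UMIs were above 0. The median of the 12 was 0.39, against 0.01 over all 1556 genes, and none was 2-fold apart. Without cells carrying mural RNA the ratio of the sum was 0.16 (0.05 to 0.27), without those carrying macrophage RNA 0.27, and in Xist-only cells it was -0.032. Col4a1, the main collagen of this layer, was at 2298 and 2972 CPM and its log2 ratio of 0.37 (0.19 to 0.55) became -0.02 without cells carrying mural RNA. Col18a1, whose fragment is endostatin, kept a ratio of 0.65 (0.23 to 1.05) and 0.90 without them. Col15a1 was lower in KO, at 618 and 417 CPM, -0.57 (-1.04 to -0.12).

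**Figure D5:**
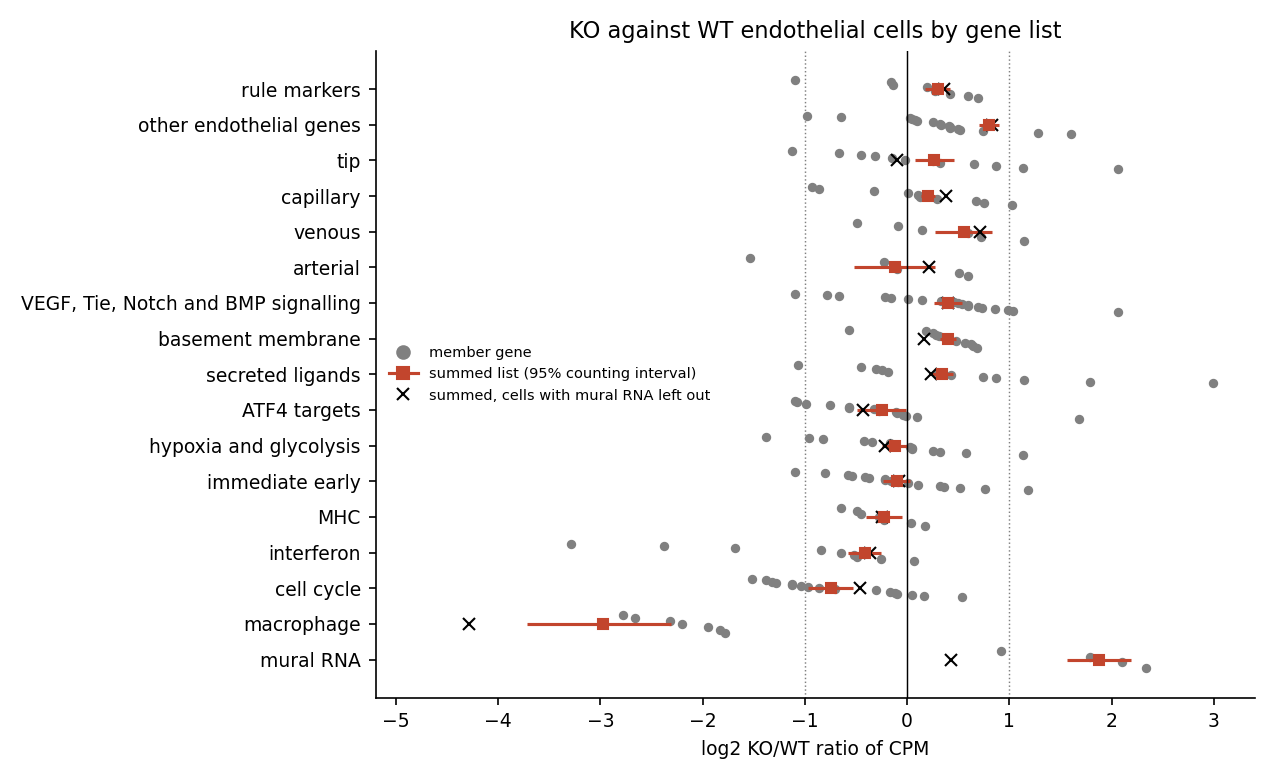
Log2 KO/WT ratio in endothelial cells for 17 gene lists. Grey points are member genes with at least 20 UMIs, squares the summed list with its 95% counting interval and crosses the sum without cells carrying 2 mural genes; dotted lines mark a 2-fold difference. The macrophage list is furthest to the left and the mural list furthest to the right, and the squares of the endothelial lists lie between -0.12 and 0.80.

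Targets of ATF4 were a little lower in sum in the KO endothelial cells, and Atf3 was the only single member lower beyond counting error. Of 35 genes, 34 were uniquely named in the files and 14 had at least 20 UMIs. Of these 12 had a log2 ratio below 0, with a median of -0.30 against 0.01 for all genes. The sum was 1808 CPM in WT against 1524 in KO, a log2 ratio of -0.25 (-0.49 to -0.01). It was -0.44 (-0.77 to -0.12) without cells carrying mural RNA and 0.039 in Xist-only cells. Atf3, a stress factor, was at 200 and 93.7 CPM, which gave a log2 ratio of -1.09 (-2.16 to -0.17). The amino acid transporter subunit Slc3a2 was at 144 and 68.1 CPM, and the translation repressor Eif4ebp1 at 216 and 128 CPM, both with intervals that included 0. Cebpb, given above, was 1 of 2 members above 0 and the only one at least 2-fold higher. Asns, asparagine synthetase, had 16 and 4 UMIs, too few to compare.

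ATF4 binds a composite element with the letters TGATGNAA, so the same promoter windows were searched for it on both strands. It was present in 9 of the 29 matched targets (31.0%) and in 3.53% of all 27025 promoters. It was in 1 of 7 matched other endothelial genes and in no matched rule marker, tip, capillary or venous gene. The promoter of Asns, a textbook ATF4 target, is shown at chr6:7693210-7693459 on the minus strand, with the element in capitals.
Asns: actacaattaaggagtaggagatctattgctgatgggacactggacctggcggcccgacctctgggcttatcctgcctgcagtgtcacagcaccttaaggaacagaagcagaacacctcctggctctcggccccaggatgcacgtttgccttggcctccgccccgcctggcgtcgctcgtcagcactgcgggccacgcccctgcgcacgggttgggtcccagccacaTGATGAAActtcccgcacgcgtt
The list was drawn up from known targets, so the share says nothing about these cells.

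Cell cycle genes were lower in the KO endothelial cells. Of 20 genes, 17 had at least 20 UMIs, and 14 of these were below 0. Their median log2 ratio was -0.86, against 0.01 over all 1556 genes. At least 2-fold lower were 7 of the 17, against 7.8% of all 3694 genes with at least 20 UMIs. The sum was 2826 CPM in WT against 1686 in KO, a log2 ratio of -0.75 (-0.97 to -0.53), and -0.46 (-0.72 to -0.21) without cells carrying mural RNA. In Xist-only cells it was -1.62 (-2.22 to -1.08). At 1000 UMIs at least 2 of the genes had a UMI in 37 of 76 WT cells and 6 of 23 KO cells, or -0.90 as a log2 ratio (-2.44 to 0.36), against 49.6% and 40.4% of the other kept cells. Hmgb2, a chromatin protein of dividing cells, was at 610 and 213 CPM, which gave a log2 ratio of -1.52 (-2.18 to -0.92). Mki67 was at 149 and 68.1 CPM and the ubiquitin carrier Ube2c at 298 and 136 CPM, both with a ratio of -1.13. The other kept cells were also lower in KO, with a log2 ratio of -0.45 for the sum.

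The interferon list had 8 of 9 genes with at least 20 UMIs below 0 and a median of -0.65, against 0.01 over all 1556 genes. At least 2-fold lower were 3 of the 9, against 7.8% of all 3694 genes with at least 20 UMIs. The summed log2 ratio was -0.42 (-0.58 to -0.26). The sum was -0.15 in Xist-only cells, with an interval of -0.44 to 0.13 that included 0. Ifi27l2a went from -1.69 to -0.06 without cells carrying macrophage RNA. MHC genes, which present antigen, had 5 of 7 members with at least 20 UMIs below 0, with a median of -0.28, and none was 2-fold lower. Their summed log2 ratio was -0.23 (-0.40 to -0.05), and -0.64 (-1.03 to -0.27) in Xist-only cells. H2-K1 was at 663 and 485 CPM, H2-D1 at 1220 and 1005 CPM and B2m at 1087 and 1115 CPM. Hypoxia and glycolysis genes had a summed log2 ratio of -0.12 (-0.25 to 0.00), and -0.22 (-0.38 to -0.06) without cells carrying mural RNA, with Gapdh at 1808 and 1865 CPM and Ldha at 937 and 741 CPM. Immediate early genes, which dissociation can induce, had a sum of -0.10 (-0.24 to 0.03), and 0.064 in Xist-only cells, with an interval of -0.17 to 0.29. Within them Fos was at 506 and 290 CPM, which gave a log2 ratio of -0.81, and Nr4a1 at 109 and 247 CPM, 1.18. Arterial genes summed to 655 and 605 CPM, a log2 ratio of -0.12 (-0.52 to 0.27), and 0.90 (0.30 to 1.45) in Xist-only cells.

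Lymphatic endothelium was hardly represented. Prox1, the factor that defines it, had 1 UMI in WT and 0 in KO, Lyve1 had 1 in each, and Mmrn1 and Reln had none. Flt4 is also a lymphatic marker, but tumour blood vessels can express it.

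Secreted ligands of endothelial cells, a list of 18 genes that includes Cxcl12 and Apln, summed to 7167 CPM in WT against 9085 in KO, a log2 ratio of 0.34 (0.24 to 0.45). The sum was 0.24 (0.10 to 0.37) without cells carrying mural RNA, 0.23 (0.13 to 0.34) without cells carrying macrophage RNA and 0.60 (0.42 to 0.77) in Xist-only cells. The median over its genes was 0.37, and -0.18 without cells carrying mural RNA. The chemokine Ccl2 was at 250 and 119 CPM, and its ratio of -1.07 was 0.06 without cells carrying macrophage RNA. Edn1, the vasoconstrictor endothelin, is named after its values were seen, since it has under 20 UMIs. It had 1 UMI in WT and 14 UMIs in 9 of 26 KO cells, a log2 ratio of 5.48 with a counting interval of 2.77 to 10.89. The growth factor gene Pdgfa had 13 UMIs in 9 WT cells and 14 in 9 KO cells, a log2 ratio of 1.78 (0.59 to 2.99).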

How the data were processed

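The values deposited for each cell are unnormalised UMI counts, which the authors made with Cell Ranger 3.1.0 from 10x 3′ libraries aligned to GRCm38 with an Ensembl annotation. The labels and the study's methods differ on the kit version. The files list 31053 genes. Positions came from GENCODE vM21 for 30934 of them. Each library is 1 sample per genotype, so no p-value between genotypes was computed. The members and gene lists were chosen with earlier results of these data known, and the mural list after the values were seen.

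UMIs were summed over the endothelial cells of a library and scaled to CPM. Sums have exact Poisson intervals, shares have Clopper-Pearson intervals, and ratios of KO to WT have conditional binomial intervals, all exact and at 95%. A count of 0 was set to 3 UMIs in ratios, and so was any count under 3 in rankings. Genes with at least 50 UMIs over both libraries were ranked, and 2-fold was the limit for a difference. List medians used members with at least 20 UMIs. Cells were thinned to 1000 UMIs with a fixed seed. Named genes were the rule's genes, list members with at least 20 UMIs, the 10 furthest apart in each direction without mitochondrial, ribosomal, sex-linked and globin genes, the 15 highest over other cells and the 20 highest in tip-marked WT cells. Low list members named with their UMIs, Edn1 among them, fall outside this rule and were chosen after their values were seen. Doublets called by Scrublet (scanpy 1.11.5), 4 WT and 0 KO endothelial cells, were kept, and leaving them out was an alternative. Other alternatives were a 15% mitochondrial limit, 4 markers, no upper gene limit, other scalings, free RNA subtracted at 5%, 2000 UMIs, 3 tip genes, limits of 20 and 100 UMIs, and cells with macrophage RNA or without Xist left out. Leaving out cells with mural RNA, each gene's top cells, or the rule's genes from a summed list, was added after seeing the data. The ratio step was tested on simulated counts. Promoters came from the RefSeq table for GRCm38.p6. The tools were Python 3.11.15 with scipy 1.17.1, numpy 2.4.6 and pandas 2.3.3.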

Additional observations from a re-analysis of the deposited data

Results flagged for a closer look

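For 4 gene lists, counted without genes of the selection rule, the summed KO/WT ratio in endothelial cells pointed the opposite way from that in all other kept cells, with both counting intervals off 0. Each difference rests on 1 library per genotype and was not tested. The log2 ratio of the capillary genes was 0.20 in endothelial cells, where Fabp4 held most of their UMIs, and -0.79 in the other cells. The other kept cells still held some endothelial RNA, with up to 9 rule markers in a WT cell and up to 3 in a KO cell. Gpihbp1 had 63 UMIs in those of WT and 19 in those of KO. The part of this RNA in the ratios of the other cells was not tested. That of the VEGF, Tie, Notch and BMP genes, without Kdr, Flt1, Tie1 and Tek, was 0.34 against -0.15, and that of the secreted ligands 0.34 against -0.17. The ATF4 targets stood at -0.25 in endothelial cells and 0.48 in the other cells, which include the melanoma cells with their own Atf4.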

How the results depend on the processing

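No paired analysis was possible because the design holds a single library per genotype. The share of endothelial cells and the share of tip-marked cells kept to within their counting intervals under every alternative. The log2 ratio of the summed tip genes was 0.54 at the 15% mitochondrial limit, -0.31 in Xist-only cells, and -0.10 with cells of 2 mural genes left out. That of the capillary genes was 0.13 without cells of 3 macrophage genes, 0.082 without doublets, 0.28 in Xist-only cells, 0.37 as a mean over cells and 0.38 without cells of 2 mural genes. For the venous genes it was 1.29 in Xist-only cells. Atf4, with 3 UMIs put in for 0, stood at -1.10 in those cells and -2.10 without mural cells, with upper limits of -0.76 and -1.75. The number of genes compared changed with the setting, so counts are given with it. Genes 2-fold lower in KO, 52 of 1556 in the main setting, numbered 88 of 1137 in Xist-only cells. They numbered 288 of 3694 at a limit of 20 UMIs and 17 of 742 at 100 UMIs. Those 2-fold higher, 50 of 1556 in the main setting, numbered 197 of 3694 at 20 UMIs, 17 of 742 at 100 UMIs and 33 of 1069 without mural cells. In Xist-only cells the basement membrane genes stood at -0.032 and the ATF4 targets at 0.039. The causes were not tested. The 26 KO cells limit what can be seen. By its counting interval, a gene with 0 UMIs in them may still have been at up to 31.4 CPM.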
